A study of Mus musculus with 12 samples.

Results

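Long non-coding RNAs (lncRNAs) of 3 classes defined by their position relative to a protein-coding gene were examined in the brains of wild-type (WT) and 5 × FAD mice. The members were the rows of the deposited lncRNA count table whose transcript type in the GENCODE vM21 annotation was bidirectional promoter lncRNA, sense intronic or sense overlapping. Gene names ending in os plus a digit (1 row) and rows on chromosomes X and Y (1 row) were left out. This gave 612 transcripts of 493 genes among the 48033 rows of the table, of which 240 were bidirectional, 322 sense intronic and 50 sense overlapping.

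The study took cerebral cortex and hippocampus from 7-month-old C57BL/6J mice, and each of the 4 groups (WT hippocampus, 5 × FAD hippocampus, WT cortex and 5 × FAD cortex) held 3 libraries. The 5 × FAD mice carry familial Alzheimer's disease mutations in human APP and PS1 transgenes under Thy1 promoter elements, which drive expression mainly in neurons, and the WT mice were non-transgenic. RNA was depleted of ribosomal RNA and sequenced as stranded paired-end libraries. The study's paper on circular RNAs also describes removal of linear RNA by RNase R. It does not say whether the libraries counted here had that step. No treatment separated the groups.

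A bidirectional promoter lncRNA starts beside the start of a coding gene and is transcribed away from it, so that 1 open promoter region can serve both. A sense intronic lncRNA lies within an intron of a coding gene on the same strand, and a sense overlapping lncRNA contains or overlaps a coding gene on the same strand. Transcripts of the sense classes are difficult to separate from unspliced RNA of their host gene, since both come from the same strand, whereas a bidirectional lncRNA lies on the opposite strand.

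The starts of the bidirectional members lay close to those of their coding neighbours. The distance between the starts had a median of 154 bases without regard to sign, and 178 of 240 were within 300 bases and 215 within 1000 bases. In 178 pairs the transcripts were arranged head to head without overlap, and in 62 the starts overlapped. Of the sense intronic members, 311 of 322 lay inside the annotated bounds of their coding neighbour, 10 lay outside and 1 overlapped it. Of the 50 sense overlapping members, 35 overlapped the neighbour, 3 lay inside it and 12 lay outside.

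The promoters of the coding neighbours are shown for 4 bidirectional members described below, because the lncRNA starts in or near this stretch. The sequences are the bases upstream of the RefSeq start of the coding gene on build GRCm38.p6, written 5′ to 3′ on the strand of the coding gene and ended before any annotated exon of that gene. Capitals mark matches on either strand to 1 of 2 motifs. The CCAAT box is bound by the factor NF-Y. The GC box, written GGGCGG, is bound by SP1.
Ankrd11 promoter, chr8:123042285-123042534, minus strand: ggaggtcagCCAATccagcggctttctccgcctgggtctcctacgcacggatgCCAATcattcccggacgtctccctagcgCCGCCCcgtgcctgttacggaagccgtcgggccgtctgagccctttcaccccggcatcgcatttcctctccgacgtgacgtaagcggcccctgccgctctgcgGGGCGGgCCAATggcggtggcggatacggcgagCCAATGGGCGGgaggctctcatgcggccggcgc
Daxx promoter, chr17:33909195-33909413, plus strand: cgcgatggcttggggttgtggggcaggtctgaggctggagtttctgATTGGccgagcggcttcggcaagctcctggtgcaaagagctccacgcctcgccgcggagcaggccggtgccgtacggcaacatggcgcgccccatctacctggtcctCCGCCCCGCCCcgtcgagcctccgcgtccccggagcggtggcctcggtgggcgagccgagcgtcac
Shc2 promoter, chr10:79637919-79638168, minus strand: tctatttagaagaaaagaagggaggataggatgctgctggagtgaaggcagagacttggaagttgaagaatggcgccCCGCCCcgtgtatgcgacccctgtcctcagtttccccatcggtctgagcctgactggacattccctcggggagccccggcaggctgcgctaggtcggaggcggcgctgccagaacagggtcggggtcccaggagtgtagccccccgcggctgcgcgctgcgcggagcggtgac
Atxn7l1 promoter, chr12:33147436-33147685, plus strand: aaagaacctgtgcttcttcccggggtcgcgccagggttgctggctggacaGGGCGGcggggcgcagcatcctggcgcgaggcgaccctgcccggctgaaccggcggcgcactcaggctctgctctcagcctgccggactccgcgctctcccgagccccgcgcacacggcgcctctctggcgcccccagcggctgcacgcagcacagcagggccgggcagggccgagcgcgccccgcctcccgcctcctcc
The Ankrd11 stretch held 4 CCAAT boxes and 3 GC boxes, the Daxx stretch 1 CCAAT box and 2 GC boxes, and the Shc2 and Atxn7l1 stretches 1 GC box each. The stretch of 250 bases upstream of Cpsf2, opposite the member Ndufb1-ps, held neither motif and is not shown. The lncRNA opposite Ankrd11, 2810013P06Rik, started 182 bases upstream of the RefSeq start. Of the F730043M19Rik transcripts opposite Atxn7l1, those with 6 and 9 exons started 100 and 89 bases upstream. The BC051226 transcript of 2 exons and 978 bases started 267 bases upstream of Daxx, and Gm47163 started 62 bases inside Shc2, so that its 5′ end overlaps that gene.

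A RefSeq window of 300 bases, from 250 before to 50 after the start, existed for the neighbours of 193 of the 240 bidirectional members. For 167 of these its start was within 300 bases of the annotated one, which left 112 distinct windows. These windows had a median GC content of 65.7%, against 56.3% over 17491 protein-coding genes taken with 1 window each. Their median count of CG dinucleotides was 26, against 13. GGGCGG on either strand was in 71.4% of the neighbours' windows and in 45.9% of those of all protein-coding genes, and in 35.7% of all 32851 RefSeq windows. The ETS core CCGGAAG was in 21.4% against 11.8% (8.86% of all windows), and CCAAT in 40.2% against 39.0% (37.4% of all windows). The TATA box TATAAA was in 6.25% against 13.3% (13.6% of all windows), and the NRF1 core GCGCATGC in 4.46% against 3.56% (2.71% of all windows). A match gives letters in a window and not binding, and these shares were not tested.

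Each library held between 3517967 and 5014389 counts, of which the members took 0.917% to 1.16%. The replicates of a group differed by more than counting noise in every pair, so no library was a copy of another. This comparison cannot tell whether libraries were prepared from the same RNA. The sense intronic class took 0.664% to 0.881% of a library, the bidirectional class 0.181% to 0.211% and the sense overlapping class 0.051% to 0.0707%. Over all libraries, 49 members had no counts. 324 members had at least 3 counts in each of the 12 libraries.

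Counts were scaled to a common library size as CPM, with TMM normalisation. Levels were compared between transcripts only as CPM per kilobase, averaged over the 12 libraries. Among members with counts, the sense intronic class had a median of 7.17 (quartiles 2.76 and 12.4), the sense overlapping class 2.45 (quartiles 0.633 and 8.04) and the bidirectional class 1.60 (quartiles 0.499 and 4.43). The median length was 968 bases in the bidirectional class, 968.5 in the sense intronic and 784.5 in the sense overlapping class. Sense intronic members had a single exon in 43.8% of cases, against 17.1% of the bidirectional members.

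**Figure D1:**
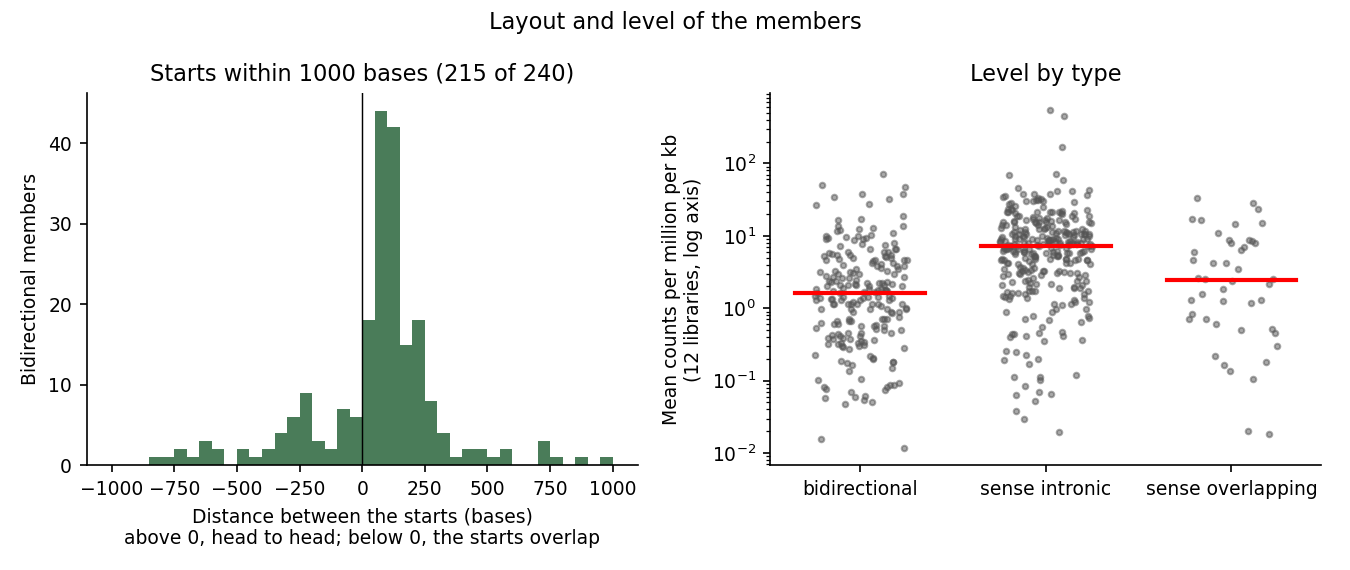
Left, the number of bidirectional members by the distance in bases between their start and that of the coding neighbour, with most on the head-to-head side of 0. Right, mean CPM per kilobase (log axis) of each member with counts, by class, with the median as a red line (1.60, 7.17 and 2.45 from left to right).

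The counts of the members were dominated by Peg13, an imprinted lncRNA expressed from the paternal allele that lies in an intron of Trappc9, a gene of vesicle trafficking. Peg13 (chr15:72805600-72810324) took 20.4% of all counts of the members, and the 5 highest members together took 33.4%. Its CPM was 2223, 1923 and 2119 in WT hippocampus, 1479, 1658 and 1754 in 5 × FAD hippocampus, 3062, 2573 and 2224 in WT cortex, and 1864, 2104 and 2717 in 5 × FAD cortex. The 3 hippocampal libraries of 5 × FAD mice were all below the 3 of WT mice, while the cortical libraries of the genotypes overlapped. The hippocampal difference had a log2 fold change of -0.34 ± 0.16 (SE, n = 3 per group) and did not pass the test (adjusted p = 0.663 after Benjamini-Hochberg correction over all rows, edgeR quasi-likelihood). The table held no row of Trappc9.

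By mean level per length the first member was Gm28967, a rank that rests on 2 libraries. It is a single-exon transcript of 281 bases within an intron of Ncapd2, which encodes a condensin subunit. Its sequence is shown because all 281 bases lie within the annotated small nucleolar RNA gene Scarna10 (chr6:125186359-125186683), which is absent from the table. Capitals mark the 235 bases that a retained-intron transcript of Ncapd2 also covers.
Gm28967, chr6:125186361-125186641, minus strand: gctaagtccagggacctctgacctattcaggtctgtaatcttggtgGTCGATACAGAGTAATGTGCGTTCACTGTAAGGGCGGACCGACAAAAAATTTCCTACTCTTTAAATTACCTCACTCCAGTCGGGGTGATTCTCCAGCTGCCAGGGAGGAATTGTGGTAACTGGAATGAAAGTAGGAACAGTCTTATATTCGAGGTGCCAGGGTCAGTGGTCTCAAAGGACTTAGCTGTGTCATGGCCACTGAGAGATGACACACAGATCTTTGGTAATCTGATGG
Gm28967 had 2938 counts in WT hippocampus 2 and 3726 in 5 × FAD cortex 1, and 70 to 262 counts in the other 10 libraries. The Ncapd2 transcript that shares its bases had 1469 counts in 5 × FAD cortex 2 and 4 to 17 counts in the remaining 11 libraries. In the groups without these 2 libraries it had 113 CPM per kilobase (5 × FAD hippocampus) and 151 (WT cortex), below Peg13 at 345 and 554. The libraries with high counts belonged to different groups, and no comparison called Gm28967. Reads that lie in Gm28967 cannot be told apart from those of Scarna10, nor, in the 235 shared bases, from those of the Ncapd2 transcript. In all, the highest level per length after Gm28967 was that of Peg13 (453) and then B930095G15Rik (168), a transcript in an intron of Farp1.

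**Figure D2:**
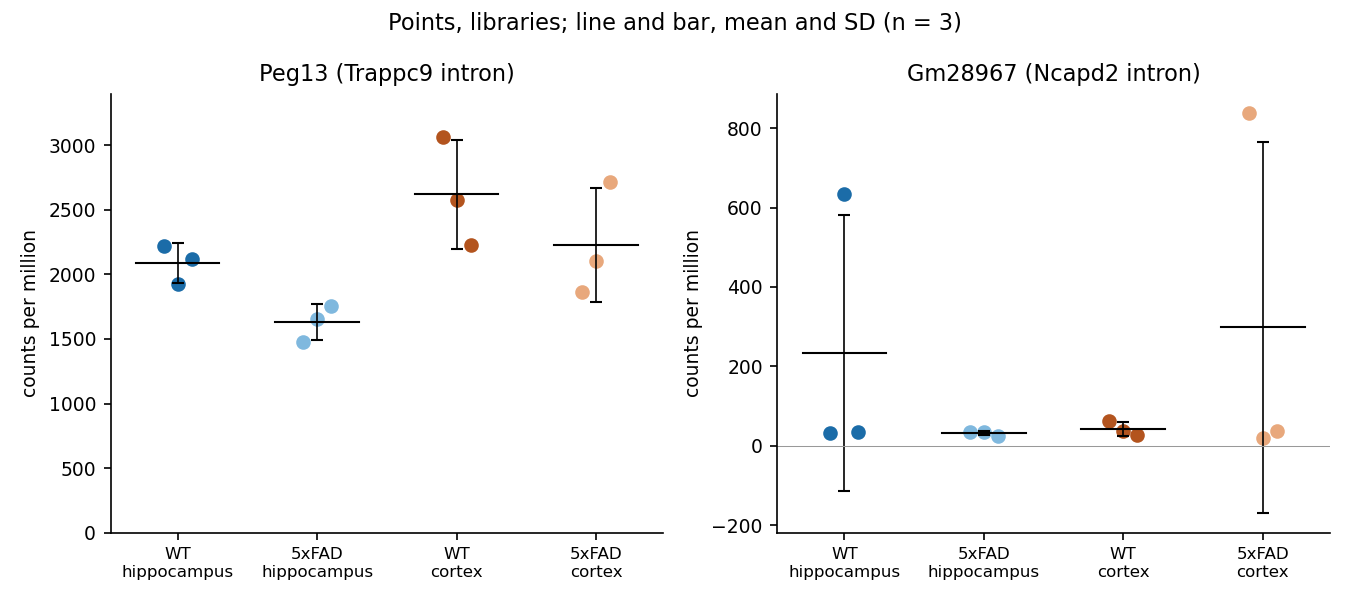
CPM of Peg13 and Gm28967 in each library by group, with the mean and SD (n = 3). Peg13 in 5 × FAD hippocampus (1479 to 1754) lay below WT hippocampus (1923 to 2223), and Gm28967 was high in 1 library of WT hippocampus and 1 of 5 × FAD cortex.

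The highest bidirectional members by level per length were Gm47163 (72.2), 9330151L19Rik (50.8), 2810013P06Rik (47.5), 4632427E13Rik (37.7) and Ndufb1-ps (37.6). Gm47163 lies opposite Shc2, which encodes a signalling adaptor. Gm47163 had a mean of 107 ± 9.30 CPM in WT hippocampus and 148 ± 24.3 in WT cortex (SD, n = 3), with 97.3 ± 13.5 and 129 ± 2.74 in the 5 × FAD groups. The 6 hippocampal libraries lay below the 6 cortical ones, with a log2 fold change of -0.44 ± 0.12 that did not pass the test (adjusted p = 0.0866, edgeR's quasi-likelihood test). 2810013P06Rik, opposite the chromatin regulator Ankrd11, varied little, with group means from 99.9 to 103 CPM and a log2 fold change between the regions of 0.00 ± 0.12. 9330151L19Rik, opposite the annotated coding gene Gm49383, had group means from 124 to 136. The main transcript of 4632427E13Rik, opposite the Golgi GTPase gene Rab30, had group means from 130 to 151. Ndufb1-ps, opposite Cpsf2, a gene of the machinery that cleaves pre-mRNA ends, had 44.9, 39.3 and 37.9 CPM in WT cortex and 26.7, 23.1 and 29.7 in 5 × FAD cortex. These groups did not overlap, with a log2 fold change of -0.62 ± 0.18 that did not pass (adjusted p = 0.851, edgeR), and in hippocampus the genotypes overlapped.

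The regional comparison asked which members differed between hippocampus and cortex. In WT mice 2 of 329 members tested passed the adjusted threshold of 0.05 (0.608%), both higher in hippocampus, against 0.986% of all 22007 rows tested. Neither passed without the low-count filter, with the replicate number as a block, or when any 1 library was left out. In 5 × FAD mice 0 of 323 passed by edgeR's quasi-likelihood test, against 0.0182% of all rows, and DESeq2 called 4. At an unadjusted p under 0.05 there were 49 members in WT mice (14.9%, against 12.8% of all rows) and 41 in 5 × FAD mice (12.7%, against 9.38%).

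A fit over all 12 libraries with genotype and region as terms, added after these counts were seen, called 13 of 358 members (3.63%), 5 higher and 8 lower in hippocampus. In the same fit 2.63% of 24632 rows were called. At an unadjusted p under 0.05 there were 67 members (18.7%), against 13.6% of all rows. This fit treats the 12 libraries as separate samples, although the study took both regions from each mouse. With the replicate number as a block it called 2 members, both higher in hippocampus. DESeq2 called 34, and leaving out any 1 library gave 5 to 8, the lowest without 5 × FAD cortex 1 or 5 × FAD cortex 2, except 16 without 5 × FAD hippocampus 3. The members still called with the block were Gm43166 and 4933413C19Rik. The calls described below for the others were those of the fit without the block. By class, 11 of 229 sense intronic, 1 of 105 bidirectional and 1 of 24 sense overlapping members were called. Sense intronic members had more counts, and their median standard error was 0.21 on the log2 scale against 0.30 for bidirectional members. Among rows with at least 500 and fewer than 2000 counts in total, 23 of 83 sense intronic members had an unadjusted p under 0.05 (27.7%), 3 of 28 bidirectional members (10.7%) and 15.1% of all rows. Among rows with 2000 counts or more, these were 11 of 37, 3 of 10 and 956 of 4348. The difference between the classes was not tested.

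Of the members higher in hippocampus, 4933413C19Rik and Gm43166 were the ones called in WT mice alone. 4933413C19Rik (chr19:28580533-28583294, 2 exons) lies in an intron of Glis3, a zinc finger transcription factor. It had 16.9, 17.9 and 17.7 CPM in WT hippocampus and 8.96, 20.5 and 17.3 in 5 × FAD hippocampus, against 3.12, 6.11 and 3.71 in WT cortex and 4.27, 4.36 and 5.75 in 5 × FAD cortex. Every hippocampal library was above every cortical one. The log2 fold change was 1.85 ± 0.24 over both genotypes (adjusted p = 0.00159, edgeR's quasi-likelihood test) and 1.99 ± 0.29 in WT mice alone (adjusted p = 0.0431, and 0.254 by edgeR with the replicate block). The non-coding rows of Glis3, summed, differed in the same direction, with a log2 fold change of 2.61 (adjusted p = 0.00265, edgeR).

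Gm43166 (chr5:131130021-131134711, 2 exons) lies in an intron of Galnt17, which belongs to a family of enzymes that start O-linked glycosylation. It had 39.6, 51.0 and 49.4 CPM in WT hippocampus, 27.9, 46.2 and 50.7 in 5 × FAD hippocampus, 14.2, 16.1 and 16.5 in WT cortex, and 12.9 to 13.3 in 5 × FAD cortex. The regions did not overlap, and the log2 fold change was 1.62 ± 0.16 (adjusted p = 0.00038, edgeR). In WT mice alone the adjusted p was 0.027, and 0.217 with the replicate block (edgeR). The summed rows of Galnt17 had a log2 fold change of 1.66 with an adjusted p of 0.177 (edgeR), and ranged from 45 to 833 counts.

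The other 3 members higher in hippocampus lay in introns of genes of guidance, membrane fusion and the cell cycle. Gm12122, in Slit3, which encodes a secreted guidance protein, had 18.4 to 19.2 CPM in the 6 hippocampal libraries and 6.00 to 14.6 in the cortical ones. Its log2 fold change was 1.05 ± 0.20, and the rows of Slit3 rose by 0.76 (adjusted p = 0.0108, edgeR). Gm15902, in Stxbp6, a gene of a SNARE-binding protein, had a log2 fold change of 0.93 ± 0.21, and 1 library of 5 × FAD hippocampus (28.2) lay within the cortical range of 17.7 to 32.4. Gm10484, in the cyclin-dependent kinase gene Cdk14, had a log2 fold change of 0.53 ± 0.12, with 42.3 to 54.6 CPM in hippocampus and 27.0 to 39.3 in cortex.

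Of the 8 members lower in hippocampus, B930095G15Rik was by far the most abundant. It lies in an intron of Farp1 (chr14:121248706-121253971), a gene of a guanine nucleotide exchange factor at synapses. Its CPM were 670, 691 and 660 in WT hippocampus and 546, 675 and 639 in 5 × FAD hippocampus, against 1064, 943 and 924 in WT cortex and 993, 843 and 842 in 5 × FAD cortex. All hippocampal libraries lay below all cortical ones, with a log2 fold change of -0.53 ± 0.09 (adjusted p = 0.00822, and 0.0874 with the replicate block, edgeR). The summed rows of Farp1 fell by 0.64 (adjusted p = 0.01, edgeR).

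Gm27002 in Osbpl10, a gene of the oxysterol-binding protein family, had a log2 fold change of -1.12 ± 0.21 beside -1.17 for the summed rows of Osbpl10 (adjusted p = 0.0191, edgeR). Gm15513 in Zfyve28 had -0.75 ± 0.16, beside -0.64 for its host (adjusted p = 0.0194, edgeR). Gm15940 in Ncald, a neuronal calcium sensor, had -1.18 ± 0.28, while the rows of Ncald had -0.36 (adjusted p = 0.495, edgeR). For Gm15940, 2 libraries of WT hippocampus (7.57 and 6.67) lay above the cortical minimum of 6.21.

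The single bidirectional member called was B230217O12Rik (chr19:57323385-57360775), whose start overlaps that of Fam160b1. It had 35.7, 33.7 and 44.4 CPM in WT hippocampus, 29.1, 36.1 and 30.4 in 5 × FAD hippocampus, 65.5, 51.3 and 62.7 in WT cortex, and 53.2, 56.1 and 40.0 in 5 × FAD cortex. The regions were apart within each genotype and overlapped when the genotypes were pooled. Its log2 fold change was -0.65 ± 0.14 (adjusted p = 0.0268, and 0.0744 with the replicate block, edgeR). The sense overlapping member called was Gm20712, which lies 318 bases outside Tmem65, with 12.4 to 20.7 CPM in hippocampus and 22.9 to 33.7 in cortex (log2 fold change -0.69 ± 0.16). The table held no rows of Fam160b1 or Tmem65.

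**Figure D3:**
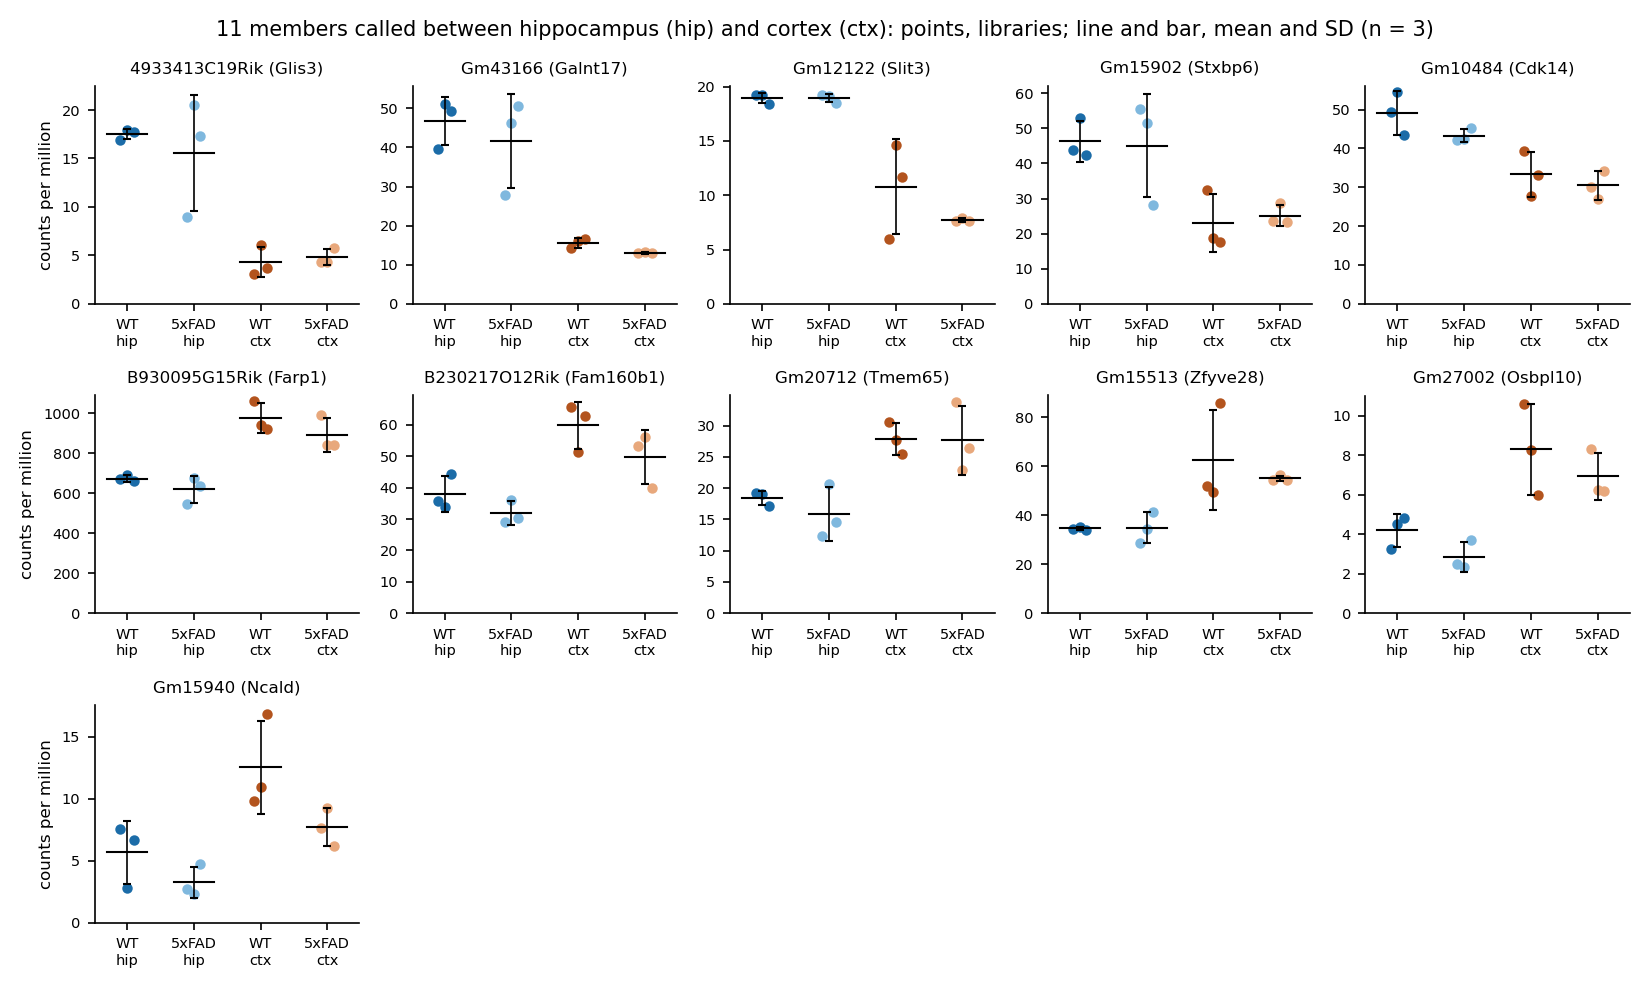
CPM of 11 of the 13 members called between the regions, with the neighbouring coding gene in parentheses, as points for libraries and mean with SD (n = 3). The upper 5 panels were higher and the other 6 lower in hippocampus, in both genotypes.

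Of the members named for the size of their regional difference in 1 genotype, Gm48646, in the anillin gene Anln, had 29, 16 and 22 counts in WT hippocampus and 6, 4 and 4 in WT cortex (log2 fold change 2.06 ± 0.38, adjusted p = 0.0802, edgeR). In 5 × FAD mice its regions overlapped, at 14 to 27 and 9 to 19 counts. Gm16227, in the Ras exchange factor gene Rasgef1b, had 9 to 13 counts in WT hippocampus and 20 to 36 in WT cortex (-1.51 ± 0.41, adjusted p = 0.194, edgeR). Gm43465, in Ptgfrn, had 10 to 16 and 26 to 29 (-1.29 ± 0.29, adjusted p = 0.127, edgeR). Gm47664, in the engulfment gene Elmo1, had 29 to 38 counts in 5 × FAD hippocampus and 68 to 114 in 5 × FAD cortex (adjusted p = 0.236, edgeR). These 4 did not pass the test.

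Over the 310 members tested in both genotypes, 190 (61.3%) had the same sign of the regional difference in WT and in 5 × FAD mice, which share no library, against 56.7% of 20658 rows. The share was 66.4% of 214 sense intronic members and 46.8% of 79 bidirectional members. Among the 49 members with an unadjusted p under 0.05 in WT mice, 43 had the same sign in 5 × FAD mice (87.8%), against 76.0% of all such rows. In 19 of 358 members (5.31%) the 6 hippocampal and the 6 cortical libraries did not overlap, against 3.00% of all rows.

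Markers checked the tissue labels. The summed hippocampal markers with rows (5 of 8) ranged from 128 to 170 CPM in hippocampus and from 72.1 to 107 in cortex. Zbtb20 made up most of this sum in hippocampus, while in cortex Spock1 had a higher mean than Zbtb20 in both genotypes. Zbtb20 and Tdo2 were higher in hippocampus (log2 fold changes 1.63 and 2.75, both called by edgeR). Spock1 went the other way (-0.44, adjusted p = 0.435, edgeR). The summed neocortical markers (5 of 8, mostly Mef2c) ranged from 164 to 264 CPM in hippocampus and from 284 to 509 in cortex. Among markers of other tissue, the choroid plexus gene Kl was called between the regions by edgeR. So were the striatal genes Drd1, Ppp1r1b and Rgs9, but no thalamic gene. Choroid plexus markers (2 of 5 with rows, of which Folr1 was at 0 and Kl made up the sum) were at 6.72 to 47.0 in hippocampus and 1.63 to 10.8 in cortex. Striatal markers (3 of 6, mostly Ppp1r1b) were at 55.7 to 247 and 221 to 515, and thalamic markers (4 of 4) at 87.2 to 218 and 62.4 to 290. Neuronal markers (6 of 6) were at 1092 to 6848 and 1048 to 2780. Oligodendrocyte markers (5 of 6) were at 352 to 590 and 299 to 620. Astrocyte markers (5 of 6, mostly Slc1a3) were at 534.5 to 1562.5 and 972 to 1613. Their part in the regional differences was not tested. In whole tissue, fewer cells of a type and less RNA per cell cannot be told apart.

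The regional difference of each member was then set beside that of its coding neighbour. The table holds the annotated non-coding transcripts of coding genes and not their messenger RNA. Of the rows of the neighbours, 658 were retained introns, 505 processed transcripts, 3 protein coding and 1 a target of nonsense-mediated decay, so that the neighbour values below describe these transcripts. Neighbour rows existed for 269 of 322 sense intronic, 174 of 240 bidirectional and 19 of 50 sense overlapping members.

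Sense intronic members differed between the regions in the direction of their host in 124 of 191 pairs (64.9%), with a Pearson r of 0.54 across pairs. With 1 member per host the count was 100 of 148 (67.6%, r = 0.64). Bidirectional members did so in 34 of 64 pairs (53.1%, r = 0.14), and in 31 of 57 (54.4%) among those whose starts were within 1000 bases. Among pairs with at least 30 counts in every library, the count was 10 of 15 for bidirectional (66.7%) and 56 of 90 for sense intronic members (62.2%). The difference between these classes was not tested. Members and hosts came from the same libraries and shared their depth, and members of 1 host were not independent. The 189 pairs in which no base was shared between a sense intronic member and a row of its host gave 64.6%. When the sense intronic member came from WT and the host from 5 × FAD libraries, which share no library, the share was 55.0% of 180 pairs (exact 95% binomial interval 47.4 to 62.4, r = 0.29). In the reverse arrangement it was 62.2% of 185 (54.8 to 69.2, r = 0.46). With at least 30 counts in every library these became 52.3% of 88 (41.4 to 63.0, r = 0.02) and 58.9% of 90 (48.0 to 69.2, r = 0.32). The intervals take each pair as independent, although the 180 pairs had 140 hosts and the 185 pairs had 145. They do not measure the spread between mice or libraries. For bidirectional members the arrangements gave 53.8% of 52 and 53.2% of 47. All 11 called sense intronic members had the sign of their host. Of the 7 sense overlapping pairs, 6 shared the sign. For the genotype difference, sense intronic members had the sign of their host in 108 of 180 pairs in hippocampus (60.0%, r = 0.13) and 105 of 181 in cortex (58.0%, r = 0.40). Over the 180 cortical pairs that shared no base, r was 0.18. Bidirectional members had the sign of their neighbour in 31 of 55 (56.4%) and 25 of 50.

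**Figure D4:**
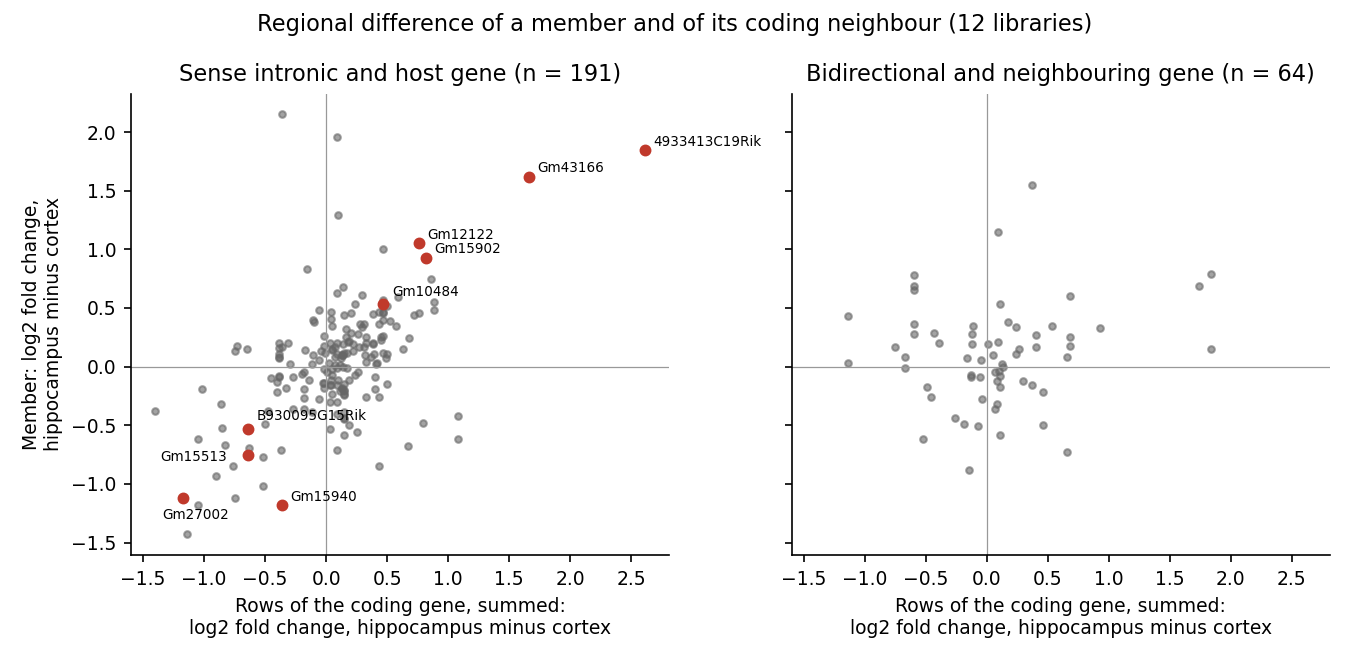
Log2 fold change between hippocampus and cortex of each member against that of the summed rows of its coding neighbour, over 12 libraries, for 191 sense intronic and 64 bidirectional pairs. Red points are the 9 called sense intronic members described in the text, all in the quadrants where member and host share the sign.

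Hosts with several sense members gave a further view. All 7 members in Cdk14 had positive log2 fold changes between hippocampus and cortex, the lowest at 0.26 and the median at 0.47, and the rows of Cdk14 itself had 0.47 (adjusted p = 0.0321, edgeR). The 4 members in Rap1a, a small GTPase gene, were at 0.12 to 0.46 and the 4 in Man1a2, a mannosidase gene, at -0.43 to -0.17. In Magi3, a scaffold gene, 9 of 11 members were below 0 (median -0.23) while its rows had 0.15. The 6 members in Frmd4a were among the higher expressed, at 20.9 to 43.0 CPM per kilobase, and ranged from -0.09 to 0.20 beside -0.39 for the host. Apart from Gm10484 in Cdk14, no member of these hosts was called.

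The genotype comparison asked which members differed between 5 × FAD and WT mice. In hippocampus 0 of 326 members passed edgeR's quasi-likelihood test, against 0.0183% of 21894 rows, and DESeq2 called 0. An unadjusted p under 0.05 was reached by 17 members (5.21%, against 7.58% of all rows), 7 higher and 10 lower in 5 × FAD mice. In cortex 0 of 329 passed by edgeR, against 0.0545% of 21999 rows, and DESeq2 called 1. 14 members had an unadjusted p under 0.05 (4.26%, against 5.34% of all rows), 9 higher and 5 lower. The median log2 fold change of the members was -0.07 in hippocampus and 0.05 in cortex, against 0.02 and 0.00 over all rows. The median standard error of a member was 0.32 in hippocampus and 0.30 in cortex on the log2 scale, which sets the size of difference that could be detected.

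Counts of Xist, the RNA of the inactive X chromosome, moved with genotype. They were 30468 to 46630 in 5 × FAD libraries 1 and 2 of both regions and 4 to 25 in all other libraries, although the study describes females in both genotypes. Sex and genotype therefore cannot be fully told apart here. Without the 4 libraries with high Xist counts, which leaves 1 library of 5 × FAD mice per region, 0 members were called by edgeR in hippocampus and in cortex, with 26 and 15 at an unadjusted p under 0.05. Here the lone 5 × FAD library is assumed to vary like the WT ones, and these counts do not show what part the 4 libraries had. DESeq2 was not run on this subset. Microglial markers (4 of 10 with rows, mostly Trem2) ranged from 30.7 to 41.8 CPM in WT hippocampus and from 48.2 to 205 in 5 × FAD hippocampus, and from 47.9 to 62.2 and 26.2 to 248 in cortex. Oligodendrocyte markers did not overlap between the genotypes, at 352 to 444 in WT and 508 to 590 in 5 × FAD hippocampus, and at 299 to 478 and 546 to 620 in cortex. Astrocyte markers, mostly Slc1a3, were at 1447 to 1562.5 in WT and 534.5 to 1200 in 5 × FAD hippocampus. Slc1a3 had means of 1376.4 and 660.5 CPM there, while Slc1a2 had 91.8 and 88.0, Aldh1l1 4.79 and 4.82, and Gja1 22.1 and 25.7. Gfap had 0 and 0.91. Striatal markers were at 221 to 379 in WT and 476 to 515 in 5 × FAD cortex. Their part in the values below was not tested.

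Several genotype differences involved members with few counts. They were chosen for an unadjusted p under 0.05 and groups without overlap in 1 region, so that separation followed from the choice. The share of all rows without overlap between the genotypes is not given here. In hippocampus Gm42700, in an intron of Magi3, had 20 to 39 counts in the WT libraries (39, 20, 20) against 6, 10 and 7 with the transgenes (log2 fold change -1.61 ± 0.41, adjusted p = 0.564, edgeR). It was within 8 to 28 counts in all cortical libraries of both genotypes. Gm42868, outside Gdap2, had counts of 6, 4 and 9 in WT hippocampus, against 14, 12 and 12 in 5 × FAD hippocampus (1.13 ± 0.43, adjusted p = 0.636, edgeR). In cortex Gm43065, in the phosphatase gene Ptpn22, had counts of 2, 2 and 3 in WT cortex, against 15, 12 and 20 in 5 × FAD cortex (2.64 ± 0.43, adjusted p = 0.31, edgeR). Gm14209, in the phospholipase gene Plcb4, had counts of 6, 8 and 4 in WT cortex, against 28, 19 and 12 in 5 × FAD cortex (1.68 ± 0.43, adjusted p = 0.844, edgeR), and 4, 3 and 8 against 16, 13 and 9 in hippocampus, where it fell under the low-count filter and was not tested. Its counts in 5 × FAD mice were above those in WT mice in both regions, but in hippocampus only narrowly, at 9 against 8. The lowest 5 × FAD count of each region, 12 and 9, was in library 3, which lacked high Xist counts. Gm43065 did not follow in hippocampus, with 8 to 11 counts in the WT and 2 to 12 in the 5 × FAD libraries.

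Other large differences came from single transcripts of genes with several rows. F730043M19Rik, opposite Atxn7l1, has 6 rows. Its 6-exon transcript ENSMUST00000140105 had counts of 257, 56 and 38 in WT hippocampus, against 26, 20 and 26 in 5 × FAD hippocampus (log2 fold change -2.11 ± 0.74, adjusted p = 0.612, edgeR). Without WT hippocampus 1 the log2 fold change was -0.82. The first of these libraries stood apart in both regions. In WT hippocampus 1 and WT cortex 1 the transcript ENSMUST00000148740 had 0 counts, which allows up to 3, while the other 10 libraries had 275 to 883 counts, 70.5% to 81.4% of the gene. In these libraries the transcripts ENSMUST00000140105 and ENSMUST00000145769 made up 40.8% and 51.0% of the gene in WT hippocampus 1 and 44.8% and 43.8% in WT cortex 1. The sum over the gene was 630 and 397 counts there, within the range of 367 to 1134 of the others. ENSMUST00000145769 had 41.7, 18.1 and 23.7 CPM in WT cortex and 9.43, 13.9 and 17.2 in 5 × FAD cortex (log2 fold change -1.04 ± 0.39, adjusted p = 0.912, edgeR), or -0.64 without WT cortex 1. With rows summed per gene, the genotype log2 fold changes of F730043M19Rik were 0.00 in hippocampus and 0.03 in cortex.

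A minor transcript of 4632427E13Rik, ENSMUST00000182578, had 20.8, 15.6 and 9.19 CPM in WT hippocampus and 55.5, 34.3 and 21.0 in 5 × FAD hippocampus, without overlap (log2 fold change 1.30 ± 0.45, adjusted p = 0.612, edgeR). It had 0 counts in WT cortex 3 and 5 × FAD cortex 1, and the main transcript had 0.05 ± 0.19 in hippocampus.

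BC051226 lies opposite the histone chaperone gene Daxx. Its transcript ENSMUST00000172526 had 43, 41 and 0 counts in WT hippocampus, 34, 22 and 14 in 5 × FAD hippocampus, 51, 22 and 20 in WT cortex and 0 in each of the 3 libraries of 5 × FAD cortex. Against a floor of 3 counts per library it was at least 10.4-fold lower in 5 × FAD than in WT cortex. edgeR did not call it (adjusted p = 0.384) and DESeq2 did (adjusted p = 4.7e-05). Over the alternatives its adjusted p ranged from 4.7e-05 to 0.95. A second transcript, ENSMUST00000174321, had 8, 19 and 8 counts in WT cortex and 14, 11 and 12 in 5 × FAD cortex. The sum over the gene was 60, 48 and 29 counts in WT cortex and 18, 13 and 14 in 5 × FAD cortex, with a log2 fold change of -1.62 (adjusted p = 0.417, edgeR).

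BX649560.1, a sense overlapping gene beside the collagen gene Col20a1, has 2 rows. ENSMUST00000094214 had 5 to 15 counts in 5 libraries (WT hippocampus 1 and 2, 5 × FAD hippocampus 1 and 2, WT cortex 1) and 191 to 330 in the other 7, and the sum of both rows stayed between 449 and 791. Sox1ot, which overlaps the transcription factor gene Sox1, had 286 to 1174 counts in its main transcript, with 172 to 290 CPM in hippocampus and 69.2 to 180 in cortex. Its log2 fold change between the regions was 0.77 ± 0.23 (adjusted p = 0.118, edgeR). Sox2ot, around Sox2, had 16 sense overlapping rows, of which 15 had Sox2 as the neighbour. Of these 15, 9 were tested, and their regional log2 fold changes ran from -2.36 to 1.28, with 3 above and 6 below 0.

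**Figure D5:**
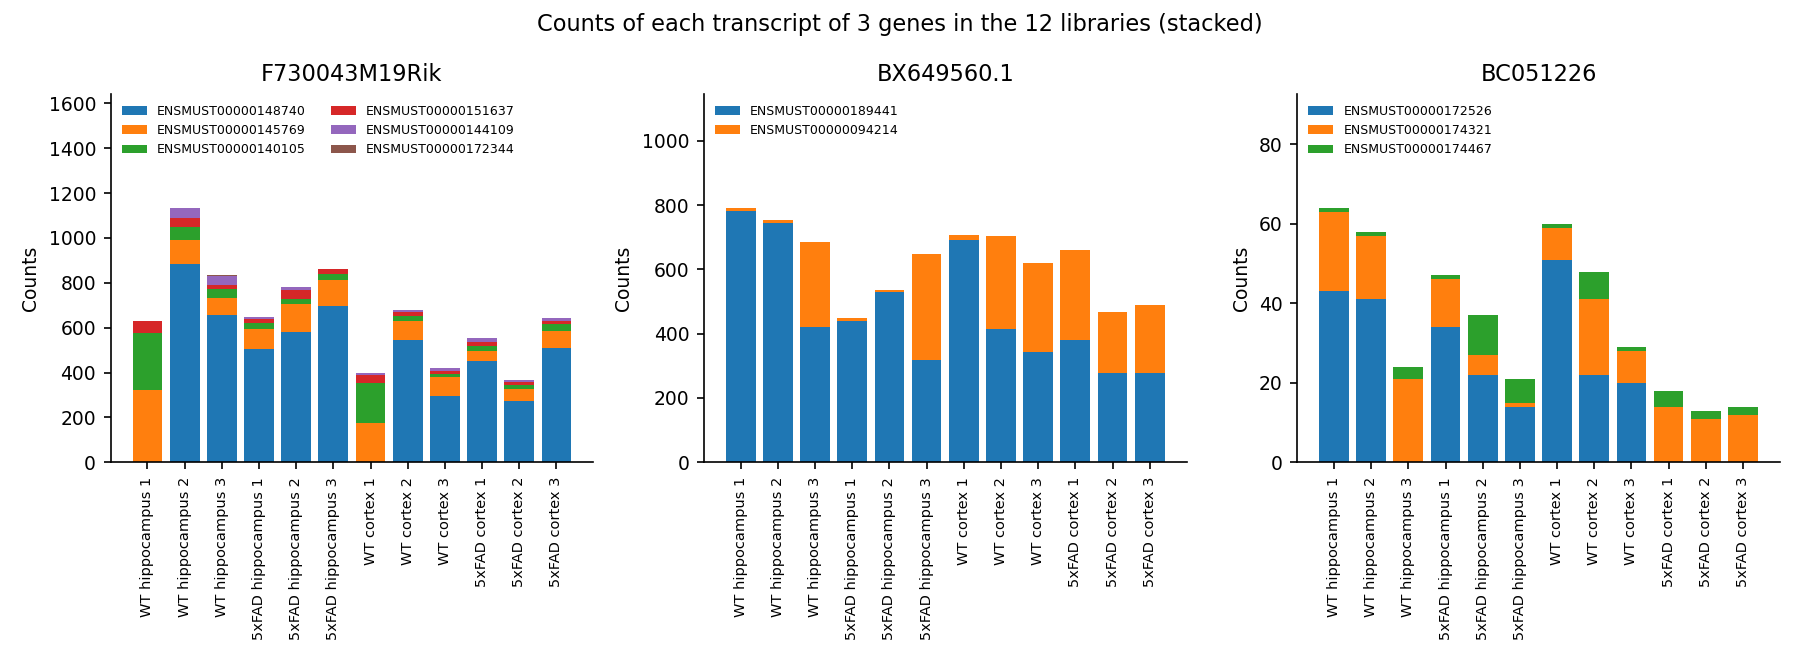
Counts of each transcript of F730043M19Rik, BX649560.1 and BC051226 in the 12 libraries, stacked. The main transcript of F730043M19Rik is absent in WT hippocampus 1 and WT cortex 1, and that of BC051226 in WT hippocampus 3 and in all of 5 × FAD cortex, while the totals of the first 2 genes change less.

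Of 59 genes with more than 1 member row with counts, 23 had at least 30 counts in every library. In 17 of the 23 the highest row varied more within groups than the sum of the gene, with a median coefficient of variation of 23.1% against 18.8%. The highest row is part of that sum, and genes outside the members were not compared. The count therefore does not set the members apart. Among 129 members that reached 100 counts in a library, 7 (5.43%) had 3 or fewer in another, against 11.2% of 9529 such rows of the whole table.

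The test of whether the regional difference depended on genotype called 0 of 358 members by edgeR, against 0.00812% of 24632 rows. DESeq2 called 1, the BC051226 transcript ENSMUST00000172526. At an unadjusted p under 0.05 there were 16 members (4.47%), against 6.89% of all rows.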

How the data were processed

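Ribosomal RNA-depleted, stranded paired-end libraries were made from cortex and hippocampus. The paper does not say whether the RNase R step it describes applied to them. Per the submitters' processing notes, Trimmomatic 0.36 and edgeR were used. The aligner, counter and genome build are not given in the sources used here. The authors deposited raw read counts per transcript, without normalization. Of the 48033 rows, 45372 matched GENCODE vM21 by transcript identifier, 225 did not and 2436 were assembled transcripts.

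Members, lists and tests were chosen with earlier results of these data known. Groups came from the sample labels. All rows were fitted with edgeR 4.0.16 (quasi-likelihood test, TMM, filterByExpr on the groups, Benjamini-Hochberg adjustment over all rows tested), with the 6 libraries of a comparison, or all 12 for the interaction. A fit of region over 12 libraries was added after the data were seen. DESeq2 1.42.0 was an alternative. The scripts were tested on simulated counts. Standard errors are the log2 fold change divided by the square root of F. CPM values are TMM-normalised.

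The neighbour was the coding gene on the opposite strand with the nearest start for bidirectional members, and the same-strand coding gene with the most overlap, or else the nearest, for sense members, and its rows were summed. Named members were those called, the highest per length in each class (5 bidirectional, 3 of each sense class), and in each comparison of 2 groups the 2 largest fold changes per direction with an unadjusted p under 0.05 and no overlap. Of the called members, 2 are not reported here. Libraries of a group came from different mice, and whether a number names the same mouse in both regions is not stated. The limit of 3 counts behind a 0 covers counting error only.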

Additional observations from a re-analysis of the deposited data

How the results depend on the processing

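Of the 612 members, 358 passed the low-count filter in the 12-library fit, as did 24632 of all 48033 rows. The alternatives were DESeq2 size factors, DESeq2, the low-count filter, sums per gene, the replicate block, all 12 libraries in one fit, and leaving out each library.

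In WT mice the regional comparison called 2 members, 0 without the filter, 4 with rows summed per gene, and 0 with the replicate block or when any 1 library was left out (0 to 0). In 5 × FAD mice it called 0 members, 4 by DESeq2 and 1 with all 12 libraries in one fit, and 0 to 1 when 1 library was left out. Over both genotypes it called 13 members, 34 by DESeq2, 6 without the filter, 25 with rows summed per gene and 2 with the replicate block. Leaving out 1 library gave 5 to 16, the lowest without 5 × FAD cortex 1 or 5 × FAD cortex 2. Without the 4 libraries with high Xist counts, an alternative added after seeing the data, it called 2. Gm43166 and 4933413C19Rik kept their calls over both genotypes in 18 of 18 alternatives. The genotype comparison in cortex called 0 members and 1 by DESeq2, and the interaction 0 and 1 by DESeq2. The causes were not tested.

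The replicate numbers were not taken as pairs, because the labels do not say that a number marks a mouse. In addition, only the highest correlation, 0.132, passed 0.1. The correlation of the deviations of same-numbered libraries was 0.006 to 0.132 between regions, where 3 of 6 correlated best with their own number, and -0.0388 to 0.00851 between genotypes. In both regions, high Xist counts were in 5 × FAD libraries 1 and 2, and ENSMUST00000148740 of F730043M19Rik was at 0 in WT library 1. This is a hint from the data that numbers mark mice, not a statement of the design. Named transcripts of F730043M19Rik lost their direction with rows summed per gene, at log2 fold changes of 0.00 in hippocampus and 0.03 in cortex. The share of members in the direction of their neighbour moved by less than its exact 95% binomial interval under these alternatives of the 12-library fit. That interval counts pairs as independent and the alternatives refit the same libraries, so this cannot show that the share holds in other mice. In the arrangements that share no library, the sense intronic share was 55.0% and 62.2%.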

Other observations

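E130317F20Rik, Gm15606 and a second Sox1ot transcript were not part of the comparisons above and were chosen after their values were seen. The bidirectional transcript E130317F20Rik ENSMUST00000168521 had 214 counts in 5 × FAD cortex 1 and 0 to 10 in the other 11 libraries, while its second transcript ENSMUST00000217802 had 9 counts there and 129 to 261 elsewhere. The sense intronic transcript Gm15606 ENSMUST00000139851 had 141 counts in WT hippocampus 1, 68 in 5 × FAD hippocampus 2, 84 in 5 × FAD cortex 1 and 0 in the remaining 9. The Sox1ot transcript ENSMUST00000080795 had 442 counts in WT cortex 2, 65 to 138 in 5 libraries and 0 in 6.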
